A study of Mus musculus with 12 samples.

Results

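Established macrophage genes and the 3 chains of complement C1q were followed in mouse gastrocnemius muscle, 9 genes in all of 54532 in the deposited table. The genes were taken by symbol: Cd68, Adgre1 and Csf1r as general macrophage markers, Mrc1, Cd163 and Lyve1 as scavenger and endocytic receptors, and C1qa, C1qb and C1qc. Of the 9 genes, 8 passed the filter for testing, a mean of at least 0.5 FPKM over the 12 libraries, and Adgre1, at 0.284 FPKM, did not. FPKM is a read count divided by transcript length and library scale, so it can be compared between genes as a level per length.

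All mice were female ICR SCID animals, a strain that lacks mature T and B cells, and the muscle was taken from the hindlimb. TL mice carried subcutaneous HT1080 tumours, grown from a cell line of human fibrosarcoma, and received the RET kinase inhibitor selpercatinib by gavage at 30 mg/kg each day for 19 days. TV mice carried the same tumours and received vehicle, and NTV mice had no tumour and received vehicle. Each group had 4 biological replicates: TL replicates 1, 4, 5 and 7, TV replicates 3, 4, 6 and 8, and NTV replicates 2, 3, 5 and 6, the order in which values are given throughout. TV against NTV addresses the effect of the tumour, TL against TV that of the drug in tumour-bearing mice, and TL against NTV what separates treated tumour-bearing mice from tumour-free ones. TL and TV share the NTV libraries as their control.

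Macrophages of skeletal muscle lie between the fibres, where they clear debris and help repair, and they depend on the CSF1 receptor for survival. In many tissues they are also the main source of C1q, a protein built from equal numbers of A, B and C chains that binds immune complexes and dying cells. C1q works with the proteases C1r and C1s. The complex they form with it cleaves C4 and C2 through C1s and so begins the classical complement pathway that leads to C3.

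Between 14939830 and 23580603 reads were assigned to genes per library, both extremes being TV libraries. The tissue matched its label: 8 genes of skeletal muscle fibres summed to between 45550 and 88129 FPKM per library, whereas 10 genes of T, NK and B cells summed to at most 0.409 FPKM. Mitochondrial reads made up 6.04 to 13.9% of reads in TL libraries, 5.08 to 7.70% in TV libraries and 11.6 to 13.5% in NTV libraries, so TV and NTV did not overlap in this share. Ucp1, a gene of brown fat, was above 2 FPKM in TL replicates 1 and 5 and in NTV replicate 5. The part of these differences in the results was not tested, except that each fit was repeated without the Ucp1 libraries. In bulk muscle, fewer macrophages and less RNA per macrophage cannot be told apart.

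In the deposited table (build mm10), C1qa (chr4:136895917-136898803), C1qc (chr4:136889804-136893065) and C1qb (chr4:136880129-136886187) lay next to each other on the minus strand. Cd68 lay at chr11:69664213-69666153 and Lyve1 at chr7:110850607-110863239, both on the minus strand. Mrc1 (chr2:14229392-14332057), Cd163 (chr6:124304656-124330527), Adgre1 (chr17:57358691-57483527) and Csf1r lay on the plus strand. In the reference annotation, Csf1r overlaps Hmgxb3 on the opposite strand and Mrc1 holds the microRNA gene Mir511. The strandedness of counting is not given in the sources used here, so Csf1r reads could include some from Hmgxb3.

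RefSeq promoter sequences (build GRCm38.p6) were at hand for 5 of the 9 genes. The 250 bases before the start of C1qb (chr4:136886201-136886450, minus strand) and Cd68 (chr11:69666171-69666420, minus strand) are shown because they were the 2 of these 5 windows free of annotated exons. Capitals mark GAGGAA, the core letters bound by PU.1, a master transcription factor of myeloid cells, searched on both strands.
C1qb: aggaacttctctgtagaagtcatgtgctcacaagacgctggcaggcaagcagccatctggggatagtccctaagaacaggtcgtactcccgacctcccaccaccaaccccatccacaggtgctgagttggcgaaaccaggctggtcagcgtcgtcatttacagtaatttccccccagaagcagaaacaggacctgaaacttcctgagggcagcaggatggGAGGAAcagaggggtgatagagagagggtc
Cd68: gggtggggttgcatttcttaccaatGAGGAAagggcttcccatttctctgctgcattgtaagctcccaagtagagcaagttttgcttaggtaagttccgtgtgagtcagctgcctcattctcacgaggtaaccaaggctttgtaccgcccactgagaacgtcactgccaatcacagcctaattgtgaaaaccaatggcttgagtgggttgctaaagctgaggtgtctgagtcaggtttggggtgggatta
The match began 30 bases before the start in C1qb and 225 bases before it in Cd68. The windows of C1qc and Mrc1 held 1 and 3 matches and that of Cd163 none. Of 32851 promoters of this length, 23.3% held the same letters.

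**Figure D1:**
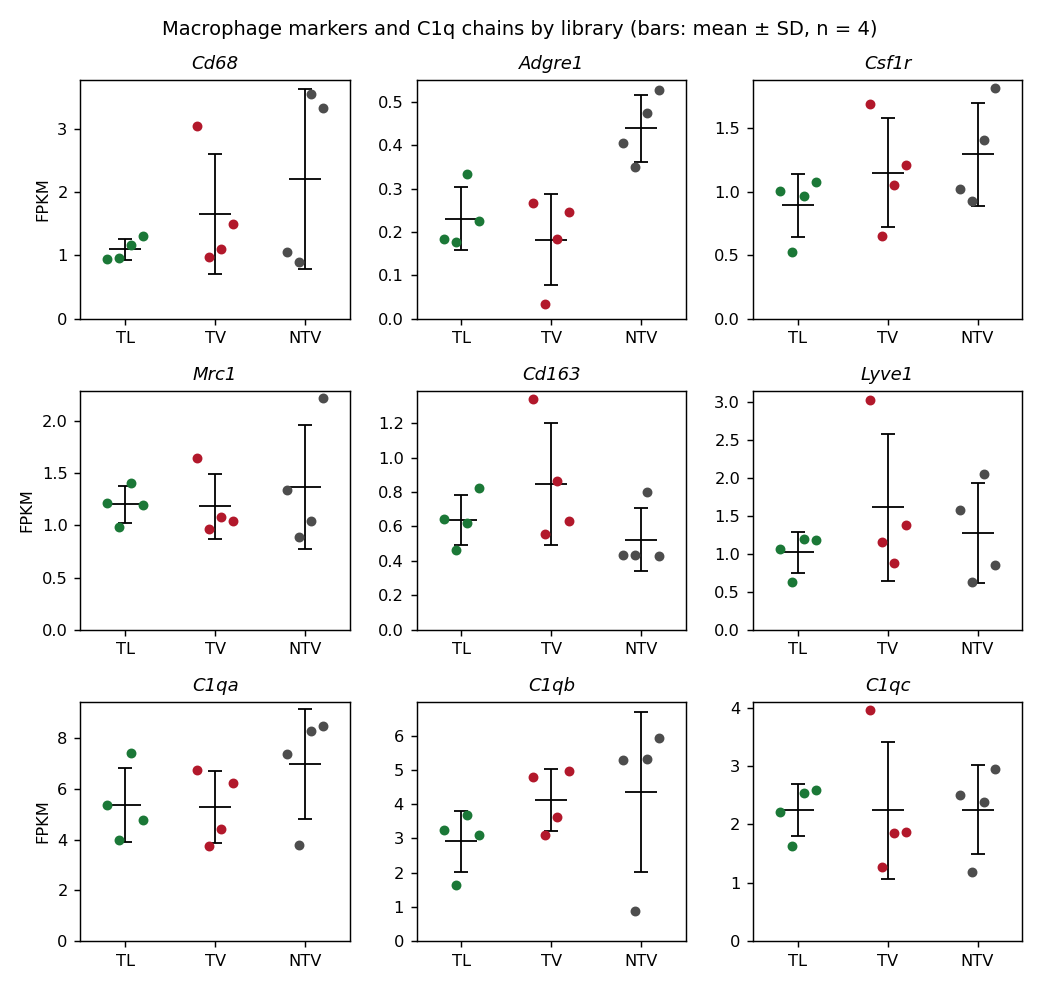
Levels (FPKM, axes from 0) of the 9 genes in each library of TL (treated tumour-bearing), TV (vehicle, tumour-bearing) and NTV (vehicle, tumour-free) muscle, left to right. Points are libraries and bars the mean ± SD (n = 4). Adgre1 is the 1 gene whose TL and TV points all lie below its NTV points.

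No change of any of the 8 tested genes was called in any of the 3 comparisons. Calls were made with limma on log2(FPKM + 0.5), over the 12754 genes that passed the filter, at a Benjamini-Hochberg adjusted p under 0.05. In TV against NTV 0 of 8 were called, where 25.2% of all tested genes were. In TL against TV 0 of 8 were called against 0.517% of all tested genes, and in TL against NTV 0 of 8 against 8.81%. None of the 8 had an unadjusted p under 0.05, which 39.1, 16.1 and 27.5% of tested genes had in these comparisons, and limma's voom on the recovered reads also called 0 of 8 in each comparison. Nor did any of the 8 have groups that did not overlap, which 27.1% of tested genes had in TV against NTV, 7.42% in TL against TV and 20.8% in TL against NTV. The median log2 change of the 8 genes was -0.083 in TV against NTV, -0.22 in TL against TV and -0.25 in TL against NTV, beside 0.015, -0.0031 and 0.022 over all tested genes. The fold changes below are on the FPKM + 0.5 scale, which understates changes of low genes.

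Adgre1, which encodes the surface receptor F4/80, had 0.184, 0.177, 0.334 and 0.226 FPKM in TL muscle, 0.266, 0.0346, 0.185 and 0.245 FPKM in TV muscle, and 0.406, 0.350, 0.474 and 0.526 FPKM in NTV muscle. Every TL and TV library lay below every NTV library, and the TL and TV libraries overlapped. Of the tested genes, to which Adgre1 does not belong, 27.1% had TV and NTV libraries that did not overlap and 20.8% had such TL and NTV libraries. The mean was 0.230 ± 0.0725 FPKM in TL muscle, 0.183 ± 0.105 FPKM in TV muscle and 0.439 ± 0.0773 FPKM in NTV muscle (SD, n = 4 each), and was 2.41 times higher in NTV than in TV muscle.

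The Adgre1 values rest on few reads: 55 over the TL libraries, 44 over the TV libraries, with 2 reads in TV replicate 4, and 103 over the NTV libraries. Since it missed the filter, its change was fitted with limma over all 27865 genes above 0, where 9.14% were called in TV against NTV, 0.0682% in TL against TV and 2.66% in TL against NTV. There Adgre1 was called lower in TV than in NTV, with a log2 change of -0.47 ± 0.13 (SE) and an adjusted p of 0.0404. In TL against NTV the log2 change was -0.36 ± 0.13 with an adjusted p of 0.159, and in TL against TV it was 0.11 ± 0.13 with an adjusted p of 0.803. Of 18 further settings for TV against NTV, 12 ended the call (adjusted p 0.0541 to 0.418), among them leaving out TL replicate 1 or 7, TV replicate 4 or 6, or NTV replicate 2, 5 or 6, each with an adjusted p of at most 0.101. Relative to Csf1r, Adgre1 was at 0.182 to 0.347 in TL libraries, 0.0529 to 0.202 in TV libraries and 0.290 to 0.398 in NTV libraries, so TV and NTV did not overlap in this ratio, which was computed after the values were seen.

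Cd68, a protein of macrophage lysosomes and endosomes, had 0.947, 0.959, 1.16 and 1.30 FPKM in TL muscle, 3.04, 0.979, 1.09 and 1.49 FPKM in TV muscle, and 1.05, 0.901, 3.55 and 3.32 FPKM in NTV muscle. TV replicate 3 and NTV replicates 5 and 6 were at 3.04 FPKM or more, the other 9 libraries were at 1.49 FPKM or less, and the groups overlapped. The log2 change was -0.25 ± 0.37 in TV against NTV (adjusted p = 0.648) and -0.60 ± 0.37 in TL against NTV (adjusted p = 0.313). With single libraries left out, the TV against NTV value ran from -0.52 without TV replicate 3 to -0.0032 without NTV replicate 5. The TL against NTV value ran from -0.86 without NTV replicate 3 to -0.35 without NTV replicate 5, and Cd68 was not called in any of these fits. The 95% interval of the TL to NTV fold ran from 0.379 to 1.15. The spread of Cd68 differed by group: its coefficient of variation was 15.7% in TL muscle, where counting error alone gives 19.8%, 57.6% in TV muscle, where it gives 16.0%, and 64.6% in NTV muscle, where it gives 14.0%.

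Csf1r (chr18:61105572-61132149) encodes the receptor for the growth factors CSF1 and IL-34. It had 1.01, 0.529, 0.964 and 1.08 FPKM in TL muscle, 1.69, 0.653, 1.05 and 1.21 FPKM in TV muscle, and 1.02, 0.928, 1.41 and 1.82 FPKM in NTV muscle. The 3 groups overlapped, with TL replicate 4 lowest and NTV replicate 6 highest. Its log2 change was -0.13 ± 0.22 in TV against NTV (adjusted p = 0.699), -0.23 ± 0.22 in TL against TV (adjusted p = 0.662) and -0.36 ± 0.22 in TL against NTV (adjusted p = 0.319). The TL to NTV fold had a 95% interval of 0.561 to 1.09. The ligands did not pass the test in any comparison: Csf1 averaged 2.65 ± 0.736 FPKM in TL, 2.38 ± 0.777 FPKM in TV and 2.09 ± 0.596 FPKM in NTV muscle, and Il34 2.10 ± 0.225, 1.93 ± 0.333 and 2.19 ± 0.653 FPKM in TL, TV and NTV muscle (SD, n = 4 each).

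Among the scavenger receptors, Mrc1, the mannose receptor, was the least variable in TL muscle. It had 1.21, 0.982, 1.41 and 1.19 FPKM in TL muscle, 1.64, 0.966, 1.08 and 1.04 FPKM in TV muscle, and 1.33, 0.889, 1.04 and 2.21 FPKM in NTV muscle. The groups overlapped throughout, and NTV replicate 6 and TV replicate 3 were the highest libraries. In limma the log2 change was -0.12 ± 0.20 in TV against NTV (adjusted p = 0.693), 0.026 ± 0.20 in TL against TV (adjusted p = 0.967) and -0.094 ± 0.20 in TL against NTV (adjusted p = 0.797). With 92 to 255 reads per library it was the best counted of the 3 receptors, and the interval for TL against TV was 0.754 to 1.37-fold.

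Cd163 encodes the receptor that takes up haemoglobin bound to haptoglobin. It had 0.644, 0.462, 0.618 and 0.821 FPKM in TL muscle, 1.34, 0.553, 0.864 and 0.633 FPKM in TV muscle, and 0.431, 0.437, 0.798 and 0.431 FPKM in NTV muscle. All TL and TV libraries were above 3 of the 4 NTV libraries, and NTV replicate 5 overlapped both groups. Its log2 change was 0.38 ± 0.19 in TV against NTV, with an unadjusted p of 0.0747 in limma and an adjusted p of 0.169, and the fold lay between 0.970 and 1.74. It was 0.16 ± 0.19 in TL against NTV (adjusted p = 0.638).

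Lyve1 encodes a hyaluronan receptor that marks lymphatic endothelium and a class of resident macrophages near vessels, so bulk levels mix these sources. It had 1.06, 0.629, 1.20 and 1.18 FPKM in TL muscle, 3.02, 1.15, 0.880 and 1.38 FPKM in TV muscle, and 1.58, 0.633, 2.053 and 0.846 FPKM in NTV muscle. The groups overlapped, and TV replicate 3 was the highest library. The fitted log2 change was 0.23 ± 0.31 in TV against NTV (adjusted p = 0.630) and -0.40 ± 0.31 in TL against TV (adjusted p = 0.573). Without TV replicate 3 the TV against NTV value was -0.054. Of the lymphatic endothelial genes, Prox1 averaged 1.29 ± 0.191 FPKM in TL, 0.860 ± 0.285 FPKM in TV and 0.640 ± 0.134 FPKM in NTV muscle, and Pdpn 3.10 ± 1.95, 3.07 ± 0.845 and 2.47 ± 0.176 FPKM in TL, TV and NTV muscle (SD, n = 4 each). Prox1 was higher in TL than in NTV by 0.65 ± 0.16 on the log2 scale (limma adjusted p = 0.0267), a call that ended in 10 of 25 other settings, and Pdpn was not called in any comparison. Prox1 was the 1 gene called of 5 tested lymphatic genes in TL against NTV, where 8.81% of all tested genes were called. The 5 genes had a median log2 change of -0.20 there, with 2 higher and 3 lower.

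By mean FPKM, a level per length, the 9 genes began with C1qa, C1qb and C1qc in this order in all 3 groups. The gap between C1qa and C1qb exceeded the larger of their SDs in TL and NTV muscle and did not in TV muscle, and that between C1qb and C1qc exceeded it only in TV muscle. C1qc stood above the next gene by more than this SD only in TL muscle; in TV and NTV muscle Cd68 followed within it, at 1.65 and 2.20 FPKM. Over all 12 libraries, C1qa averaged 5.88 FPKM, at percentile 61.0 of the tested genes, C1qb 3.795 FPKM at percentile 49.2, and C1qc 2.24 FPKM at percentile 35.1. The other 5 tested markers lay between percentiles 6.19 and 26.9.

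C1qa had 5.36, 3.97, 7.41 and 4.77 FPKM in TL muscle, 6.75, 3.77, 4.42 and 6.24 FPKM in TV muscle, and 7.37, 3.78, 8.28 and 8.48 FPKM in NTV muscle. Of the NTV libraries 3 were high and replicate 3 was close to the lowest TV library, so the groups overlapped. The log2 change was -0.34 ± 0.26 in TV against NTV (adjusted p = 0.354), 0.022 ± 0.26 in TL against TV (adjusted p = 0.980) and -0.32 ± 0.26 in TL against NTV (adjusted p = 0.450). The TV to NTV fold lay between 0.532 and 1.17.

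C1qb had 3.23, 1.63, 3.69 and 3.09 FPKM in TL muscle, 4.79, 3.09, 3.62 and 4.97 FPKM in TV muscle, and 5.29, 0.877, 5.32 and 5.94 FPKM in NTV muscle. NTV replicate 3 was the lowest of the 12 libraries, while the other 3 NTV libraries were the highest. In limma the log2 change was 0.13 ± 0.43 in TV against NTV (adjusted p = 0.854), -0.46 ± 0.43 in TL against TV (adjusted p = 0.646) and -0.33 ± 0.43 in TL against NTV (adjusted p = 0.655). This library decided the sign and a call: without NTV replicate 3 the log2 change was -0.40 in TV against NTV (adjusted p = 0.217) and -0.86 in TL against NTV, where limma then called it at an adjusted p of 0.0488.

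C1qc had 2.21, 1.63, 2.54 and 2.59 FPKM in TL muscle, 3.95, 1.28, 1.86 and 1.87 FPKM in TV muscle, and 2.496, 1.17, 2.38 and 2.95 FPKM in NTV muscle. TV replicate 3 was the highest library and NTV replicate 3 the lowest, and the group means were nearly equal, at 2.24 ± 0.439 FPKM in TL, 2.24 ± 1.18 FPKM in TV and 2.25 ± 0.760 FPKM in NTV muscle (SD, n = 4 each). The interval of the TV to NTV fold, 0.635 to 1.48, leaves room for a change in either direction, and its log2 change of -0.045 turned sign at equal library totals and with voom.

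**Figure D2:**
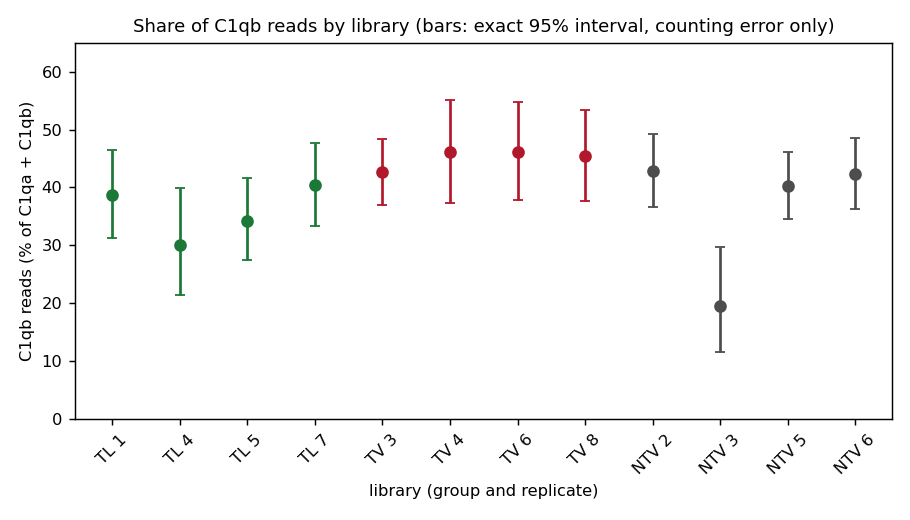
C1qb reads as a percentage of C1qa plus C1qb reads (axis from 0) in each TL, TV and NTV library, left to right. Bars are exact 95% binomial intervals and cover counting error only. The 4 TV libraries lie at 42.6 to 46.2%, the TL libraries at 30.1 to 40.4%, and NTV replicate 3 at 19.5%.

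The proportion of the A and B chains, which the protein holds in equal numbers, varied between libraries. C1qb made up 38.7, 30.1, 34.2 and 40.4% of the C1qa and C1qb reads in TL libraries, 42.6, 46.2, 46.2 and 45.5% in TV libraries, and 42.9, 19.5, 40.2 and 42.3% in NTV libraries. All TL shares were below all TV shares, and NTV replicate 3, with 16 of 82 reads, was the lowest, with an exact (Clopper-Pearson) 95% interval of 11.6 to 29.7%. The intervals of single TL and TV libraries overlapped. In FPKM, C1qb was at 0.540 ± 0.106 of C1qa in TL muscle, 0.786 ± 0.0520 in TV muscle and 0.573 ± 0.230 in NTV muscle (SD, n = 4 each). This ratio was chosen after the values were seen and was given no test. C1qc was at 0.428 ± 0.0838 of C1qa in TL, 0.411 ± 0.127 in TV and 0.321 ± 0.0275 in NTV muscle, with overlapping groups.

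**Figure D3:**
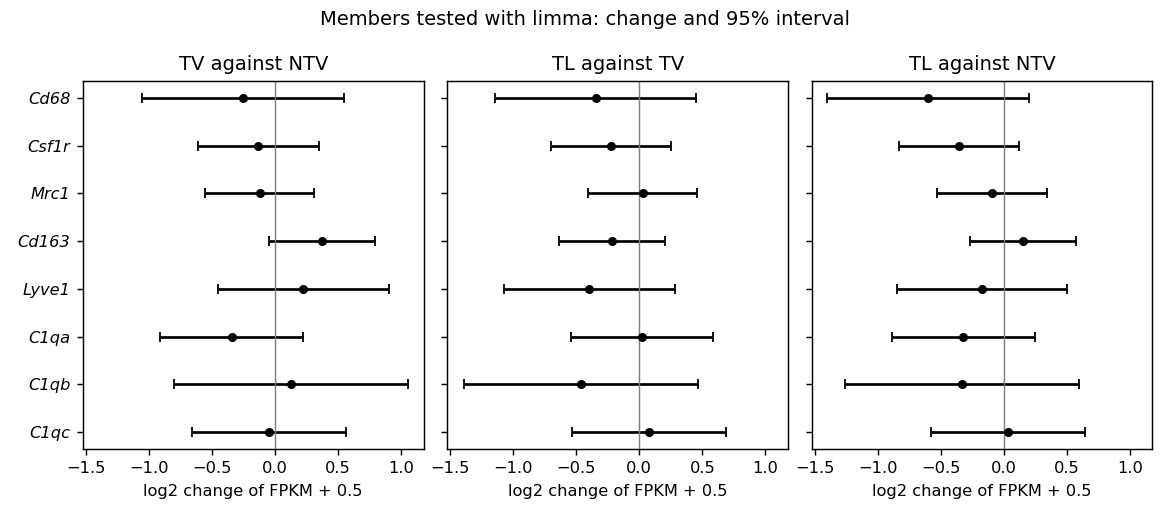
Log2 change of FPKM + 0.5 for the 8 tested genes, with 1 panel for each comparison. Points are limma estimates and bars 95% intervals. Every interval includes 0, and Cd163 in TV against NTV comes nearest to leaving it out.

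The 9 genes tended to be high or low in the same libraries of a group. TV replicate 3 was the highest TV library for 8 of the 9 genes, and TV replicate 4 the lowest for 8. NTV replicate 3 was the lowest NTV library for 8, and TL replicate 4 the lowest TL library for 8. How many of all tested genes were highest or lowest in these libraries was not counted, so the pattern may not be particular to the 9 genes. Summed over the 9 genes, TL libraries had 15.9, 10.98, 19.3 and 16.2 FPKM, TV libraries 26.5, 12.5, 15.1 and 19.1 FPKM, and NTV libraries 21.0, 9.97, 25.3 and 26.5 FPKM. The groups overlapped, and the libraries of a group were farther apart in TV and NTV muscle than in TL muscle.

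**Figure D4:**
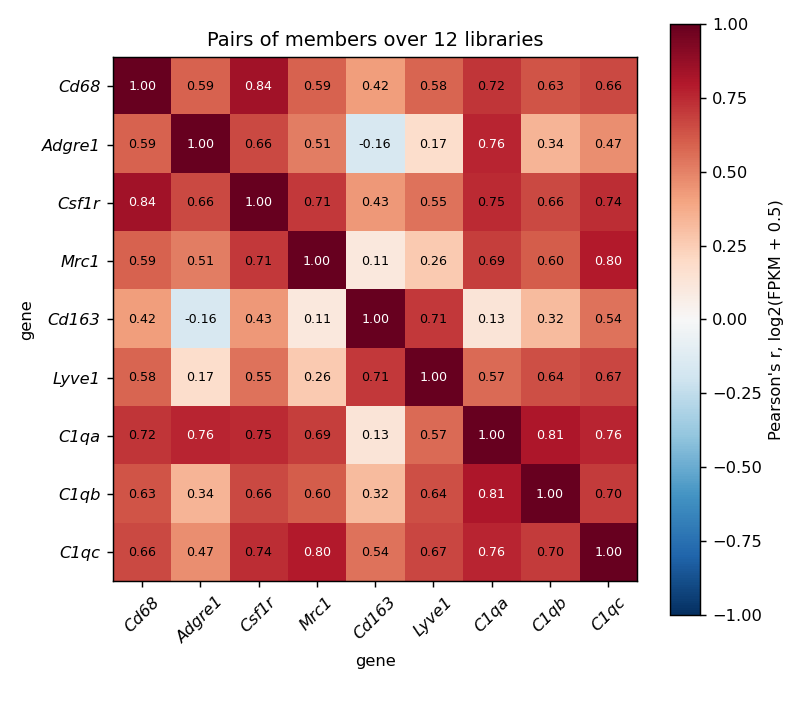
Pearson's r between each pair of the 9 genes over the 12 libraries, on log2(FPKM + 0.5), with blue for negative and red for positive values. Both axes list the genes, and the diagonal is 1. Of 36 pairs 35 are positive, and Cd163 and Adgre1 give the 1 negative pair, at -0.157.

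Over the 36 pairs of genes, r ran from -0.157 to 0.839 with a median of 0.615, and 16 pairs had a permutation p under 0.05 after adjustment over the 36 pairs (13 by Spearman's rho). Within groups the median r was 0.678. Without the 2 libraries farthest from the median of the gene on the x axis, 11 of the 16 pairs kept an r above 0.5. Both genes of a pair were read in the same library and share its scale. Pairs of other genes were not tested, so no share over all genes stands beside the 16 pairs. The count fell to 6 without TL replicate 4, 2 without TV replicate 4, 8 without TV replicate 6 and 7 without NTV replicate 3.

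Cd68 and Csf1r gave the highest value (r = 0.839, permutation p = 0.00012, adjusted p = 0.00432, rho = 0.867, p = 0.00053, adjusted p = 0.00636). It was 0.791 without NTV replicates 5 and 6 and 0.799 within groups. C1qa and C1qb followed (r = 0.809, permutation p = 0.00026, adjusted p = 0.00468, rho = 0.909, p = 0.00019, adjusted p = 0.00342), with 0.850 without TV replicate 4 and NTV replicate 3 and 0.903 within groups. Mrc1 and C1qc reached 0.796 (permutation p = 0.00164, adjusted p = 0.0197, rho = 0.909, p = 0.00013, adjusted p = 0.00342), and 0.846 without TV replicate 3 and NTV replicate 6. Cd163 varied least with the rest: its r was 0.108 with Mrc1 and 0.132 with C1qa, and 0.707 with Lyve1 (permutation p = 0.0113, adjusted p = 0.0339), where rho was 0.448 (adjusted p = 0.203).

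The genes most like each set were ranked by r with the mean of its standardised members over the 12 libraries, among 10934 tested protein-coding genes, as a description. For C1qa, C1qb and C1qc these were Lyz2 (0.920), Il10rb (0.914), Pgghg (0.885), Kcnk6 (0.874) and Hhex (0.827). For Cd68, Adgre1 and Csf1r they were Cyba (0.902), Cul7 (0.873), Itgbl1 (0.870), Pdzd11 (0.870) and Dok1 (0.868). For Mrc1, Cd163 and Lyve1 they were Ccl6 (0.916), Fut11 (0.896), Ccl9 (0.873), Dpep1 (0.828) and Ms4a6d (0.827). Lyz2, lysozyme of myeloid cells, ranged over 11.3 to 25.1 FPKM in TL, 13.1 to 33.2 FPKM in TV and 12.7 to 30.6 FPKM in NTV muscle.

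Other macrophage genes gave no calls in TV against NTV. Of 22 further macrophage genes 11 passed the filter and 0 were called in TV against NTV, with a median log2 change of -0.042. In that comparison 25.2% of all tested genes were called. Mertk, a receptor for the uptake of dying cells, averaged 0.617 ± 0.0638 FPKM in TL, 0.665 ± 0.281 FPKM in TV and 0.706 ± 0.143 FPKM in NTV muscle and was not called. Ptprc, the pan-leukocyte gene of CD45, was under the filter at 0.0995 ± 0.0329, 0.0912 ± 0.0381 and 0.0746 ± 0.01999 FPKM in TL, TV and NTV muscle (SD, n = 4 each).

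Of 14 genes of LYVE1-positive resident macrophages 9 were tested. In TV against NTV, where 25.2% of all tested genes were called, 1 of the 9 was called. This was Cbr2, which fell by 1.01 on the log2 scale (SE 0.31, limma adjusted p = 0.0323, lost in 11 of 26 other settings). None of these macrophage genes was called in TL against NTV, where 8.81% of all tested genes were. Folr2, the folate receptor of such cells, averaged 0.421 ± 0.170, 0.465 ± 0.257 and 0.524 ± 0.1802 FPKM in TL, TV and NTV muscle (SD, n = 4 each). Timd4, a phosphatidylserine receptor, averaged 0.333 ± 0.218, 0.145 ± 0.0634 and 0.190 ± 0.129 FPKM in TL, TV and NTV muscle. Ccr2, the chemokine receptor of monocytes, was under the filter, at 0.247 ± 0.116, 0.326 ± 0.284 and 0.259 ± 0.197 FPKM in TL, TV and NTV muscle.

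Among 8 monocyte genes 2 were tested, and they moved in opposite directions in TV against NTV, where 25.2% of all tested genes were called. Plac8 rose by 0.99 ± 0.24 (limma adjusted p = 0.0118) and S100a4 fell by 1.03 on the log2 scale (SE 0.32, limma adjusted p = 0.0348, lost in 10 of 25 other settings). Plac8 had 1.43, 0.577, 0.480 and 0.568 FPKM in TL, 1.11, 0.598, 0.901 and 0.407 FPKM in TV, and 0.0688, 0.0749, 0.187 and 0.148 FPKM in NTV muscle, so both tumour groups lay above NTV. TV and NTV libraries did not overlap for 27.1% of all tested genes, and TL and NTV libraries for 20.8%. Plac8 was also called in TL against NTV (log2 change 0.98 ± 0.24, limma adjusted p = 0.0279), a call lost in 8 of 20 other settings. With no filter, its limma adjusted p there was 0.0532. Every NTV library lay below the 0.5 FPKM of the filter, so Plac8 was tested only through the tumour groups, where it was high. Its place among the tested genes therefore does not add to its calls.

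Of 5 tested MHC class II genes 2 fell in TV against NTV, and of 4 tested activation genes 1 fell, beside 25.2% of all tested genes called in either direction. The list of MHC class II genes, which present antigen, held 7, and the 2 that fell were H2-DMa, by 0.59 (SE 0.15, limma adjusted p = 0.0148) and H2-Eb1, by 0.83 (SE 0.27, limma adjusted p = 0.0444, lost in 14 of 26 other settings). H2-DMa had 1.91, 1.89, 1.90 and 1.76 FPKM in TL, 1.0002, 1.19, 1.53 and 1.19 FPKM in TV, and 1.87, 1.78, 1.81 and 3.12 FPKM in NTV muscle. All TV libraries were below all TL and NTV libraries. Among all tested genes, TV libraries did not overlap NTV libraries for 27.1% and TL libraries for 7.42%. In TL against TV the H2-DMa log2 change of 0.46 was not called (limma adjusted p = 0.1797). None of the 5 was called in TL against NTV, where 8.81% of all tested genes were. The log2 change of H2-DMa was -0.13 there (limma adjusted p = 0.604). Of 16 activation genes 4 were tested. Nos2, inducible nitric oxide synthase, fell by 0.74 in TV against NTV (SE 0.15, limma adjusted p = 0.00553). In TL against NTV it fell by 0.76 (limma adjusted p = 0.0127), a call lost in 3 of 25 other settings. Among them were the limma fits without TL replicates 1 and 5 (adjusted p = 0.0515) and without the Ucp1 libraries (adjusted p = 0.107). Nos2 averaged 0.439 ± 0.0794, 0.450 ± 0.0846 and 1.11 ± 0.296 FPKM in TL, TV and NTV muscle (SD, n = 4 each). Its TL and TV means were below the 0.5 FPKM of the filter, which it passed only through NTV muscle. Its place among the 4 tested genes therefore does not add to its calls.

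**Figure D5:**
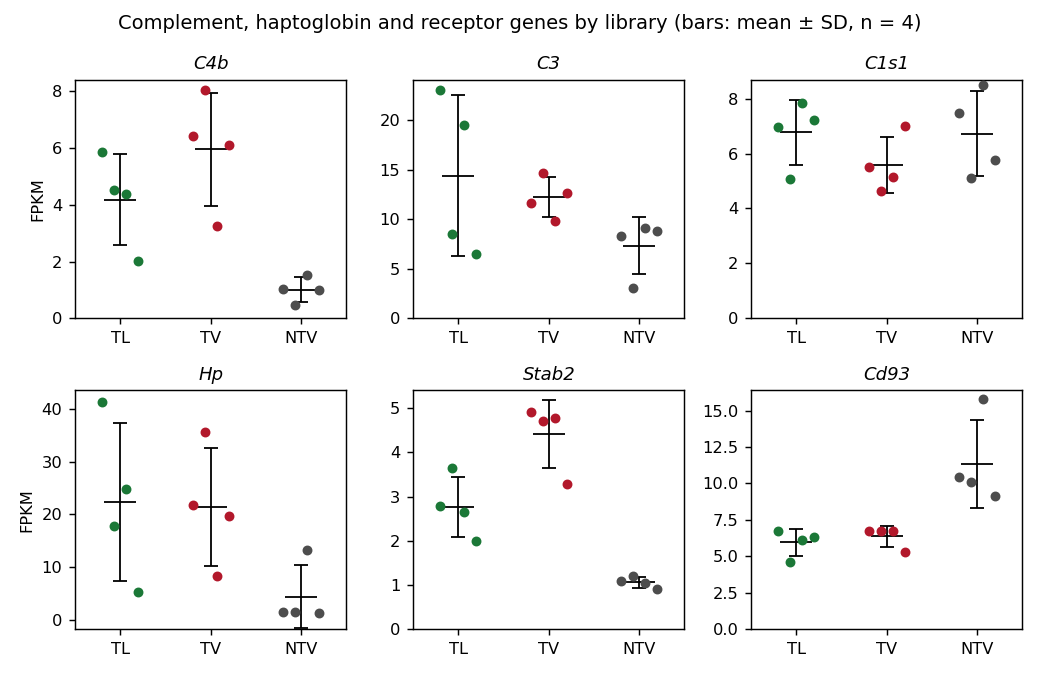
Levels (FPKM) of the complement genes C4b, C3 and C1s1, of haptoglobin (Hp) and of the receptors Stab2 and Cd93 in TL, TV and NTV libraries, left to right. Points are libraries and bars the mean ± SD (n = 4). C4b and Stab2 lie higher and Cd93 lower in every TL and TV library than in every NTV library. Among all tested genes, 27.1% had TV and NTV libraries without overlap, and 20.8% had such TL and NTV libraries.

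Downstream of C1q, C4b was the complement gene that rose. It had 5.86, 4.51, 4.37 and 2.01 FPKM in TL muscle, 6.43, 8.04, 3.24 and 6.11 FPKM in TV muscle, and 1.03, 0.482, 1.54 and 1.001 FPKM in NTV muscle. Every TL and TV library was above every NTV library. TV and NTV libraries did not overlap for 27.1% of all tested genes, and TL and NTV libraries for 20.8%. The log2 change of C4b was 2.08 ± 0.32 in TV against NTV (limma adjusted p = 0.00172), 1.60 ± 0.32 in TL against NTV (adjusted p = 0.0131) and -0.48 ± 0.32 in TL against TV (adjusted p = 0.5001). The TL against NTV call was lost in 3 of 26 other settings. Among them were the limma fits without TL replicates 1 and 5 (adjusted p = 0.0631) and without the Ucp1 libraries (adjusted p = 0.0666). C4a, a near copy of C4b, was listed at 0.0189 to 0.197 FPKM in all libraries, and reads shared by the pair cannot be assigned with certainty.

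C4b was the 1 gene called of 7 tested classical and lectin pathway genes in each comparison with NTV. Of all tested genes, 25.2% were called in TV against NTV and 8.81% in TL against NTV. The median log2 change over the 7 was 0.028 in TV against NTV. The proteases that bind C1q were not called: C1ra averaged 2.00 ± 0.866, 2.45 ± 0.655 and 2.57 ± 0.291 FPKM in TL, TV and NTV muscle, and C1s1 6.77 ± 1.20, 5.58 ± 1.02 and 6.73 ± 1.55 FPKM (SD, n = 4 each). C1rb and C2 were under the filter, at 0.2003 ± 0.0914 and 0.318 ± 0.128 FPKM in TL, 0.216 ± 0.160 and 0.342 ± 0.135 FPKM in TV, and 0.320 ± 0.107 and 0.251 ± 0.112 FPKM in NTV muscle. C3 averaged 14.4 ± 8.13, 12.2 ± 2.03 and 7.31 ± 2.88 FPKM in TL, TV and NTV muscle. Every TV library was above every NTV library for C3, and limma did not call it (adjusted p = 0.166 in TV against NTV). TV and NTV libraries did not overlap for 27.1% of all tested genes. Serping1, the C1 inhibitor, averaged 20.01 ± 4.84, 26.3 ± 7.10 and 28.3 ± 7.23 FPKM in TL, TV and NTV muscle. Of the 8 tested regulators 0 were called in any comparison. The share of all tested genes called was 25.2% in TV against NTV, 0.517% in TL against TV and 8.81% in TL against NTV.

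Further along the cascade, 3 of 10 alternative and terminal pathway genes were tested. For scale, 25.2% of all tested genes were called in TV against NTV and 8.81% in TL against NTV. In TV against NTV C8g, a chain of the membrane attack complex, fell by 0.61 (SE 0.21, limma adjusted p = 0.0482, lost in 17 of 26 other settings). Of 4 tested receptors and C1q-binding proteins, Cd93, a surface protein of endothelial and myeloid cells first described as a C1q receptor, fell by 0.76 in TV against NTV (SE 0.17, limma adjusted p = 0.00754) and by 0.86 in TL against NTV (adjusted p = 0.0115, and 0.0552 at equal library totals). It had 6.74, 4.60, 6.14 and 6.33 FPKM in TL, 6.74, 6.71, 6.76 and 5.27 FPKM in TV, and 10.4, 10.1, 15.8 and 9.12 FPKM in NTV muscle. Of 6 blood endothelial genes, Kdr and Cdh5 also fell in both comparisons with NTV (Kdr by 1.39 and Cdh5 by 0.69 on the log2 scale in TV against NTV, limma adjusted p = 0.00139 and 0.0117), and Cldn5 in TL against NTV (by 0.66, adjusted p = 0.0127, lost in 2 of 26 other settings). Summed, these 6 genes were at 41.0 to 54.9 FPKM in TL, 50.8 to 61.5 FPKM in TV and 69.6 to 89.6 FPKM in NTV muscle; their part in the Cd93 result was not tested.

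Hp, haptoglobin, which brings haemoglobin to the Cd163 receptor, had 41.4, 17.9, 24.8 and 5.26 FPKM in TL, 21.8, 35.7, 8.30 and 19.6 FPKM in TV, and 1.40, 1.45, 13.3 and 1.28 FPKM in NTV muscle. NTV replicate 5 overlapped both tumour groups. Hp rose by 2.65 ± 0.74 in TV against NTV (limma adjusted p = 0.0221, lost in 7 of 26 other settings), and its log2 change of 2.57 ± 0.74 in TL against NTV was not called (adjusted p = 0.0505), though 9 of 26 other settings called it, such as without NTV replicate 5 (adjusted p = 0.0187). Hp is also made by adipocytes, and 6 adipocyte genes summed to 16.4 to 212 FPKM in TL, 22.6 to 87.6 FPKM in TV and 7.47 to 96.2 FPKM in NTV muscle; their part was not tested. Of 8 tested haem handling genes, 3 rose and 5 were not called in TV against NTV, where 25.2% of all tested genes were called. The 3 were Hp and the ferritin chains Fth1 and Ftl1. Fth1 rose by 0.62 ± 0.14 (limma adjusted p = 0.00814, lost in 2 of 26 other settings). Ftl1 rose by 0.53 ± 0.18 (limma adjusted p = 0.04999, lost in 21 of 26 other settings). In TL against NTV, 1 of the 8 was called, beside 8.81% of all tested genes. This was Ftl1, which rose by 0.74 ± 0.18 (limma adjusted p = 0.0288, lost in 10 of 26 other settings). Hmox1, the haem-degrading enzyme, was not called, at 3.86 ± 0.734, 4.46 ± 2.32 and 3.04 ± 0.353 FPKM in TL, TV and NTV muscle (SD, n = 4 each).

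Stab2, like Lyve1 a hyaluronan receptor, was the 1 of 4 tested hyaluronan genes that was called. That is near the 25.2% of all tested genes called in TV against NTV, and 8.81% were called in TL against NTV. It had 2.78, 3.64, 2.66 and 1.98 FPKM in TL, 4.92, 4.70, 4.79 and 3.28 FPKM in TV, and 1.09, 1.21, 1.03 and 0.913 FPKM in NTV muscle. Both tumour groups lay above NTV without overlap, whereas Lyve1 overlapped. Among all tested genes, 27.1% had TV and NTV libraries without overlap, and 20.8% had such TL and NTV libraries. The fitted log2 change of Stab2 was 1.65 ± 0.16 in TV against NTV (limma adjusted p = 0.000422), 1.05 ± 0.16 in TL against NTV (adjusted p = 0.00461) and -0.60 ± 0.16 in TL against TV (adjusted p = 0.117). In TL against TV, where 0.517% of all tested genes were called, limma called no gene of any list as tested here. Stab2 was called there with library weights (adjusted p = 0.0413) and without TL replicate 4 (adjusted p = 0.0406).

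Of 7 tested genes of fibro-adipogenic progenitors, stromal cells that lie beside muscle macrophages, 4 fell and 3 were not called in TV against NTV, where 25.2% of all tested genes were called. Those that fell had log2 changes of -1.75 for Serpinf1, -1.29 for Dpt, -1.23 for Col15a1 and -0.90 for Cd34 (limma adjusted p 0.00153 to 0.0109). The 3 others, Pdgfra, Dcn and Ly6a, had log2 changes of -0.16, -0.21 and -0.061. Of the 7, 3 fell and 4 were not called in TL against NTV, where 8.81% of all tested genes were called, with log2 changes of -1.84 for Serpinf1, -1.61 for Col15a1 and -1.02 for Cd34 (limma adjusted p 0.00191 to 0.00634). Summed, the 7 genes were at 59.6 to 105 FPKM in TL, 86.7 to 131 FPKM in TV and 124 to 153 FPKM in NTV muscle, so TV and NTV overlapped. Of the 8 muscle fibre genes, Atp2a1, the calcium pump of fast fibres, rose by 0.94 ± 0.18 in TV against NTV (limma adjusted p = 0.00460, lost in 2 of 26 other settings) and the other 7 were not called. The part of these genes' cells in the bulk levels of the macrophage genes was not tested.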

How the data were processed

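Per the labels' protocols, poly(A) mRNA of gastrocnemius was made into libraries with random hexamer priming. Build mm10 and the tools DESeq2, featureCounts 1.5.0-p3 and HISAT2 2.05 appear in the submitters' processing notes with no role stated; the annotation and strandedness are not given in the sources used here. The authors deposited FPKM values for 54532 genes in 12 libraries, with gene lengths, and these were used as deposited. After multiplying by gene length, 100% of values came out as whole reads (tolerance 0.1 read), so reads were recovered; their scale between libraries equalled median-of-ratios factors.

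Genes with a mean of at least 0.5 FPKM (12754) were tested with limma 3.58.1 (R 4.3.3) on log2(FPKM + 0.5), with all 3 groups in 1 fit and a trended spread, at a Benjamini-Hochberg adjusted p under 0.05; the fit was tested on simulated data. The limma p-values measure the spread between mice of a group, stated to be biological replicates. Those of pairs come from permuting all 12 libraries without regard to group, so differences between groups enter them. Intervals are 95%; those of read shares cover counting error only. Pairs used 100000 permutations (scipy 1.17.1). No pair of libraries in a group was alike within counting error (lowest chi-square per degree of freedom 16.4 over 18 pairs). The median change of all genes moved by over 0.1 only with equal totals in TL against NTV (0.14 against 0.022).

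The 9 genes and 22 other lists (201 of 202 symbols found) were chosen with earlier results of these data known. Named were the 9 genes, per comparison up to 4 called genes of each list by absolute moderated t, a fixed set of partner genes with their levels, and the 5 genes most like each set. The result of 1 called list gene is not reported here. Alternatives covered pseudocount, filter, scaling, spread, library weights, samples in the fit, replicate block, unit, each library left out, and the libraries that stood apart in Ucp1; settings for Adgre1 without the filter were added after seeing the data.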

Additional observations from a re-analysis of the deposited data

Results flagged for a closer look

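Of 27 groups of 4 libraries examined (9 genes in 3 groups), 3 held a library whose gap to its nearest neighbour was a larger part of the group's range than Dixon's limit for 4 samples allows; chance flags about 1 in 20 groups. Mrc1 was highest in TV replicate 3, at 1.64 FPKM, above 0.966 to 1.08 FPKM in the other 3 TV libraries. Cd163 was highest in NTV replicate 5, at 0.798 FPKM, above 0.431 to 0.437 FPKM in the other 3 NTV libraries. C1qb was lowest in NTV replicate 3, at 0.877 FPKM, below 5.29 to 5.94 FPKM in the other 3 NTV libraries.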

How the results depend on the processing

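No tested gene of the 9 was called in any of 26 alternatives per comparison, with 2 exceptions: 1 (Adgre1) with no filter in TV against NTV, and 1 (C1qb) without NTV replicate 3 in TL against NTV, so that leaving out single libraries gave 0 to 1 calls there and 0 in the other comparisons. The count of 16 related pairs was 15 to 21 under other pseudocounts and scaling and 2 to 19 with single libraries left out.

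Changes near 0 turned sign; the cause was not tested. In TV against NTV, C1qc (main -0.045) was 0.0038 at equal totals, 0.31 with the replicate block and 0.00079 with voom. In TL against TV, Mrc1 (main 0.026) was -0.014 with quantile normalization and -0.0033 with voom, and C1qa (main 0.022) was -0.0085 with voom. Without TL replicates 1 and 5, as without the Ucp1 libraries, Mrc1 was -0.071, C1qa -0.22 and C1qc (main 0.076) -0.0049 there. In TL against NTV, Mrc1 (main -0.094) was 0.0017 at equal totals and 0.16 with the block, and C1qc (main 0.031) was -0.050 without TL replicates 1 and 5 and -0.011 without the Ucp1 libraries. With single libraries left out, the changes in TV against NTV ran over -0.28 to 0.030 for Csf1r, -0.25 to 0.076 for Mrc1, -0.054 to 0.42 for Lyve1, -0.40 to 0.34 for C1qb and -0.31 to 0.13 for C1qc. Those in TL against TV ran over -0.035 to 0.15 for Mrc1, -0.13 to 0.14 for C1qa, -0.10 to 0.34 for C1qc and -0.0063 to 0.17 for Adgre1. Those in TL against NTV ran over -0.22 to 0.10 for Mrc1, -0.36 to 0.028 for Lyve1 and -0.19 to 0.16 for C1qc.

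Partner genes that were not called, and are given as levels for that reason, also turned sign. In TV against NTV, C1ra was 0.12, Serping1 0.082 and Il34 0.034 with the replicate block, and Serping1 0.029 without the Ucp1 libraries. In TL against TV, the block gave -0.41 for C3, -0.29 for Csf1, -0.015 for Il34, 0.069 for Mertk and 0.10 for Pdpn, equal totals 0.013 for Mertk and 0.019 for Nos2, and library weights 0.029 for Mertk; without TL replicates 1 and 5, as without the Ucp1 libraries, C3 was -0.66, Pdpn 0.55 and Nos2 0.052. In TL against NTV, C1s1 was -0.015 with quantile normalization, -0.034 with the block, -0.12 without TL replicates 1 and 5 and -0.0025 without the Ucp1 libraries. Il34 there was 0.091 at equal totals, 0.0099 with library weights, 0.019 with the block and 0.023 without the Ucp1 libraries, and Pdpn was -0.040 with library weights. With single libraries left out, TV against NTV ran over -0.21 to 0.059 for C1ra, -0.28 to 0.030 for Serping1, -0.0075 to 0.32 for Csf1 and -0.21 to 0.055 for Mertk. TL against TV ran over -0.22 to 0.37 for C3, -0.033 to 0.29 for Csf1, -0.48 to 0.47 for Hp, -0.33 to 0.19 for Hmox1, -0.16 to 0.10 for Mertk, -0.42 to 0.13 for Pdpn, -0.18 to 0.013 for Cd93 and -0.065 to 0.034 for Nos2. TL against NTV ran over -0.093 to 0.14 for C1s1, -0.22 to 0.067 for Il34, -0.19 to 0.36 for Pdpn and -0.19 to 0.028 for H2-DMa.

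The groups share some replicate numbers in the labels. Same-numbered libraries deviated from their group means with correlations of 0.0751 (TL4 and TV4), 0.0861 (TL5 and NTV5), 0.0142 (TV3 and NTV3) and 0.13 (TV6 and NTV6), so the numbers were not taken to pair mice. With the replicate block, 0 genes of all tested were called in each comparison, against 3217, 66 and 1123 without it. A library whose number no other group shared added nothing to that fit, which left little to measure the spread. The lack of calls with the block therefore cannot show that changes were absent, and its turns of sign carry little weight. The block is counted among the other settings given above. Over all genes, the count of calls in TL against TV was 19 with no filter, 40 at equal totals, 232 with library weights, 8 with only these groups in the fit, 4 without TL replicates 1 and 5, and 0 without the Ucp1 libraries. In TL against NTV it was 742 with no filter, 726 at equal totals and 711 without the Ucp1 libraries. With single libraries left out, the count in TL against TV ran from 7 to 280: it was 12, 280, 7 and 28 without TL replicates 1, 4, 5 or 7, 22, 24 and 110 without TV replicates 3, 4 or 6, and 42 without NTV replicate 3. That in TL against NTV ran from 514 to 1287: it was 514 and 536 without TL replicates 4 or 7, and 609, 710, 537 and 561 without NTV replicates 2, 3, 5 or 6. That in TV against NTV ran from 2233 to 3437. Cd163 and Adgre1 were absent from the fit at a mean of at least 1 FPKM. Depth limits Adgre1 most, at 2 to 31 reads per library.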
